A study of Mus musculus with 8 samples.

Results

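This account concerns 10 genes of Wnt reception in mouse embryonic fibroblasts: the secreted R-spondins Rspo1, Rspo2 and Rspo3, the receptor-clearing ubiquitin ligases Rnf43 and Znrf3, the ligands Wnt5a and Wnt5b, the feedback scaffold Axin2, and the receptors Lrp6 and Ror2. They were taken by gene symbol from the array annotation, 10 of 19938 genes measured with a single-symbol probe set, and each had 1 such probe set, so the rule of taking the highest mean over the 8 arrays left nothing to choose. The set was chosen by the Daxx and vector signals of these same arrays, in that an earlier account had shown changes in some members. The adjusted p-values and counts for Daxx against vector below therefore describe where each member falls in a fit over all genes, and they are not independent evidence that it changed.

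The cells came from Daxx knockout mice of the FVB/N background. Daxx is a chaperone of the histone variant H3.3 that also takes part in gene repression. The knockout fibroblasts, cultured in medium with 10% serum, had been complemented with Daxx in the samples named DaxxA (2 arrays) and DaxxB (2 arrays) and with vector in 4 samples, so every array, controls included, carries the knockout. The labels give neither the meaning of A and B, nor the promoter that drives Daxx, nor the number of clones or separate cultures, so the spread behind each p-value is that between these arrays and could be technical. The question put to the arrays was which genes Daxx regulates.

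Wnt ligands bind Frizzled receptors together with the co-receptor Lrp6 (or its relative Lrp5), which stabilises beta-catenin and switches on targets such as Axin2. Rnf43 and Znrf3 are membrane ubiquitin ligases that remove Frizzled and Lrp6 from the cell surface, and R-spondins, bound to Lgr receptors, take these ligases away and so raise the response to Wnt. Wnt5a works largely outside beta-catenin, through Ror2, and directs cell polarity and migration in mesenchyme. Rnf43, Znrf3 and Axin2 are themselves beta-catenin targets in many tissues and act as negative feedback.

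All values are log2 signals made by the authors with the RMA method, on which 1 unit is a factor of 2, and a change is a difference of means with its standard error (SE). A gene was called when its p from limma, adjusted over all 19938 genes, was below 0.05. The Daxx probe set itself read 7.23 to 7.46 in the Daxx arrays and 6.85 to 7.34 in the vector arrays and did not separate the labels (limma adjusted p = 0.46). The position of its probes against the deletion was not known here, so it does not check the labels, and every direction below is that of the arrays as labelled. Vector replicate 2 stood apart, with an interquartile range of 2.79 against 3.31 to 3.39 in the other 7 arrays, and counts and levels that it moves are given with and without it where they are described. Of 13 fibroblast markers 11 lay above the 95th percentile of 1027 olfactory receptor genes, used here as a gauge of background because fibroblasts are not known to use them; Lum and Fap did not.

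In the arrays labelled Daxx, Rspo2, Rnf43 and Wnt5a were each about 2-fold or more below the vector arrays, and Rspo1 was slightly lower. Of the 10 members 4 were called lower, 0 higher and 6 were not called, where 4.52% of all genes were called, 2.73% lower and 1.8% higher. The 3 called members at least 2-fold lower stand beside 0.241% of all genes. Wnt5a passed that cut narrowly, at 2.02-fold, and ran from 1.94-fold to 2.23-fold with each array left out in turn. Without vector replicate 2 the count was again 4 lower and 0 higher, beside 12.8% of all genes called, 7.57% lower and 5.26% higher. The 4 called members were also the 4 whose Daxx arrays all lay below all vector arrays, beside 6.79% of all genes, and 14.8% of all genes separated in either direction. The median change of the 10 members was -0.146, and that of all genes was -0.028. These medians were, with vector replicate 2 left out, -0.081 and 0.015.

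**Figure D1:**
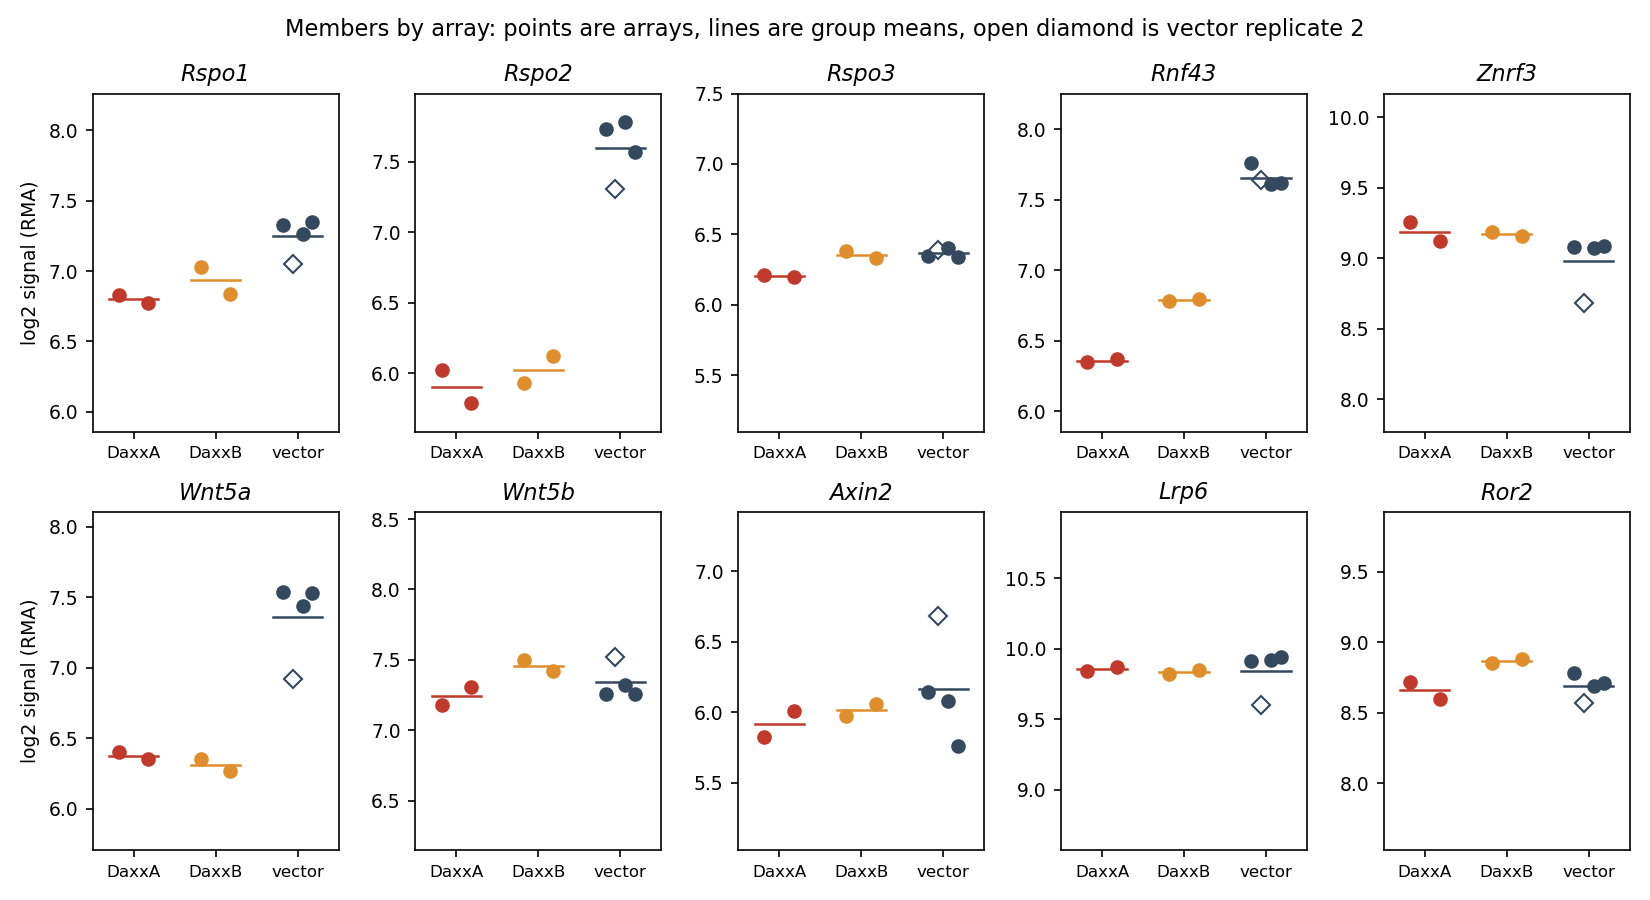
Log2 signal (vertical axis, each panel spanning the same number of log2 units) of the 10 members in the DaxxA, DaxxB and vector arrays; points are single arrays, lines are group means and the open diamond is vector replicate 2. Rspo2, Rnf43 and Wnt5a read 5.79 to 6.80 in the 4 Daxx arrays and 6.92 to 7.78 in the 4 vector arrays.

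Rspo2, the R-spondin best known for limb and lung development, read 6.02 and 5.79 in DaxxA, 5.93 and 6.12 in DaxxB, and 7.73, 7.31, 7.78 and 7.57 in vector. All 4 Daxx arrays lay more than 1 log2 unit below the lowest vector array, and DaxxA and DaxxB overlapped. The mean was 5.97 ± 0.139 in Daxx and 7.60 ± 0.215 in vector (SD, n = 4 each), a measured change of -1.63 (SE 0.114, 95% interval -1.89 to -1.37, limma adjusted p = 9.64e-05). The Daxx signal was near background: the mean of 5.97 lay under 6.07, the 95th percentile of the olfactory receptor genes, and 2 of the 4 Daxx arrays lay above that percentile on their own array. The fold is therefore given with values under an array's own percentile raised to it, a setting chosen after seeing the data. Rspo2 was 2.86-fold lower by this floored estimate, which allows for background and not for the spread between arrays. The 95% interval of the measured change reached 2.58-fold at its smaller end. With each array left out in turn the floored estimate ran from 2.75-fold to 3.06-fold, and the measured change was called in 8 of 8 fits. Because these are bulk cultures, fewer cells that make a transcript and less of it per cell cannot be told apart, here and for every gene below.

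Rspo1, another R-spondin, showed a small difference. It read 6.83 and 6.77 in DaxxA, 7.03 and 6.84 in DaxxB, and 7.33, 7.05, 7.26 and 7.35 in vector. The highest Daxx array (DaxxB replicate 1) and the lowest vector array (replicate 2) nearly met, and the groups did not overlap. The change was -0.38 (SE 0.085, limma adjusted p = 0.0425), 1.3-fold lower. That call was lost in 6 of the 8 fits that left out 1 array, with adjusted p up to 0.136, and only the fits without vector replicate 2 (adjusted p = 0.000985) and without DaxxB replicate 1 (adjusted p = 0.0422) kept it. Rspo3 read 6.21 and 6.20 in DaxxA, 6.38 and 6.33 in DaxxB, and 6.34 to 6.40 in vector. The DaxxA arrays lay below the vector arrays and the DaxxB arrays overlapped them, and the change over both was -0.09 (SE 0.059, adjusted p = 0.574). Its signal was close to background: 4 Daxx arrays and 3 vector arrays lay above the olfactory 95th percentile on their own array. Vector replicate 2, at 6.39 against 6.51, did not. A difference in change between the 3 R-spondins was not tested.

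Of the receptor-clearing pair, Rnf43 was called and Znrf3 was not. Rnf43 read 6.35 and 6.37 in DaxxA, 6.78 and 6.80 in DaxxB, and 7.76, 7.64, 7.61 and 7.62 in vector. The 3 groups formed 3 tight, separate levels, DaxxA lowest and vector highest. The DaxxA arrays were not far above the olfactory 95th percentile of their own array, 5.98 and 6.04. The mean was 6.58 ± 0.249 in Daxx and 7.66 ± 0.0707 in vector (SD, n = 4 each), a change of -1.08 (SE 0.116, 95% interval -1.34 to -0.82, limma adjusted p = 0.0011), 2.11-fold lower. Vector replicate 2 lay among the other vector arrays for this gene, and without it the change was again -1.08.

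Znrf3, the homologue of Rnf43 with the same role, read 9.26 and 9.12 in DaxxA, 9.19 and 9.16 in DaxxB, and 9.08, 8.68, 9.07 and 9.09 in vector. Every Daxx array lay above every vector array, as held for 8.02% of all genes, but the change of 0.20 (SE 0.097, 95% interval -0.02 to 0.42) did not pass (limma adjusted p = 0.374). Vector replicate 2 was the low array, and without it the difference was 0.10 (adjusted p = 0.186).

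Of the Wnt5 ligands, Wnt5a was called and Wnt5b was not. Wnt5a read 6.40 and 6.35 in DaxxA, 6.35 and 6.27 in DaxxB, and 7.54, 6.92, 7.44 and 7.53 in vector. The 4 Daxx arrays were close together and all lay below vector replicate 2, which was itself well under the other vector arrays. The Daxx signal was close to background, as for Rspo3. All 4 Daxx arrays lay above the olfactory 95th percentile of their own array, which was 5.98 to 6.13. The mean was 6.34 ± 0.0547 in Daxx and 7.36 ± 0.295 in vector (SD, n = 4 each), a change of -1.01 (SE 0.132, 95% interval -1.31 to -0.71, limma adjusted p = 0.00318), 2.02-fold lower, and 2.23-fold lower without vector replicate 2 (adjusted p = 1.49e-07). Wnt5b, its close paralogue, read 7.18 and 7.31 in DaxxA, 7.50 and 7.42 in DaxxB, and 7.26, 7.52, 7.32 and 7.26 in vector. Its groups overlapped and the change was 0.01 (SE 0.087, 95% interval -0.18 to 0.21, adjusted p = 0.949).

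The receptors showed no difference that passed the test. Lrp6, the co-receptor of beta-catenin signalling, read 9.84 and 9.87 in DaxxA, 9.82 and 9.85 in DaxxB, and 9.91, 9.60, 9.92 and 9.94 in vector. The vector mean was pulled down by replicate 2, and the other 3 vector arrays lay just above all Daxx arrays: the change was 0.00 with all arrays (95% interval -0.18 to 0.18, adjusted p = 0.992) and -0.08 without that one (adjusted p = 0.259). Ror2, the tyrosine kinase receptor of Wnt5a, read 8.72 and 8.60 in DaxxA, 8.85 and 8.88 in DaxxB, and 8.78, 8.57, 8.69 and 8.71 in vector. DaxxB lay above the vector arrays while DaxxA overlapped them, and the change over both was 0.07 (SE 0.077, 95% interval -0.10 to 0.25, adjusted p = 0.699).

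Axin2, a scaffold of the beta-catenin destruction complex and a common readout of the pathway, was near background. Its mean over the 8 arrays was 6.06, above 94.7% of the olfactory receptor genes and just under the level of 6.07 set as their 95th percentile, whereas the mean of each of the other 9 members lay above it, that of Rspo2 through its vector arrays alone. Axin2 read 5.82 and 6.01 in DaxxA, 5.97 and 6.06 in DaxxB, and 6.14, 6.68, 6.08 and 5.76 in vector. The vector arrays spanned the Daxx arrays on both sides, and the change of -0.20 (SE 0.169, 95% interval -0.59 to 0.18, adjusted p = 0.664) was -0.03 without vector replicate 2.

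The second comparison set DaxxA and DaxxB each against vector in a fit of 3 groups. Both share the 4 vector arrays, so their likeness is no repeat of the result. Rspo2, Rnf43 and Wnt5a were called lower in each, 3 of 10 members, where 1.97% of all genes were called for DaxxA (1.45% lower, 0.522% higher) and 2.69% for DaxxB (1.92% lower, 0.767% higher). Rspo2 changed by -1.69 in DaxxA and -1.57 in DaxxB (SE 0.146 for both, limma adjusted p = 0.00196 and 0.00226), at least 2.96-fold and 2.77-fold lower by the bound above. Rnf43 changed by -1.29 in DaxxA and -0.86 in DaxxB (SE 0.065 for both, adjusted p = 0.000422 and 0.000877). Wnt5a changed by -0.98 in DaxxA and -1.05 in DaxxB (SE 0.172 for both, adjusted p = 0.0385 and 0.0243).

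Those calls were not equally firm. Wnt5a lost its call in both groups whenever an array other than vector replicate 2 was left out, with adjusted p from 0.0997 to 0.377 for DaxxA and from 0.0709 to 0.259 for DaxxB, while the change stayed between -1.09 and -0.92. Rspo2 lost its call for DaxxB without DaxxB replicate 1 (adjusted p = 0.0516). Without vector replicate 2, 4 members were lower for DaxxA, beside 11.3% of all genes called (6.8% lower, 4.46% higher), and 4 were lower and 1 higher for DaxxB, beside 20.5% (9.53% lower, 10.9% higher). The added genes were Rspo1 in both groups (adjusted p = 0.000345 for DaxxA and 0.00214 for DaxxB) and Wnt5b, which was 1.13-fold higher in DaxxB (adjusted p = 0.0478).

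**Figure D2:**
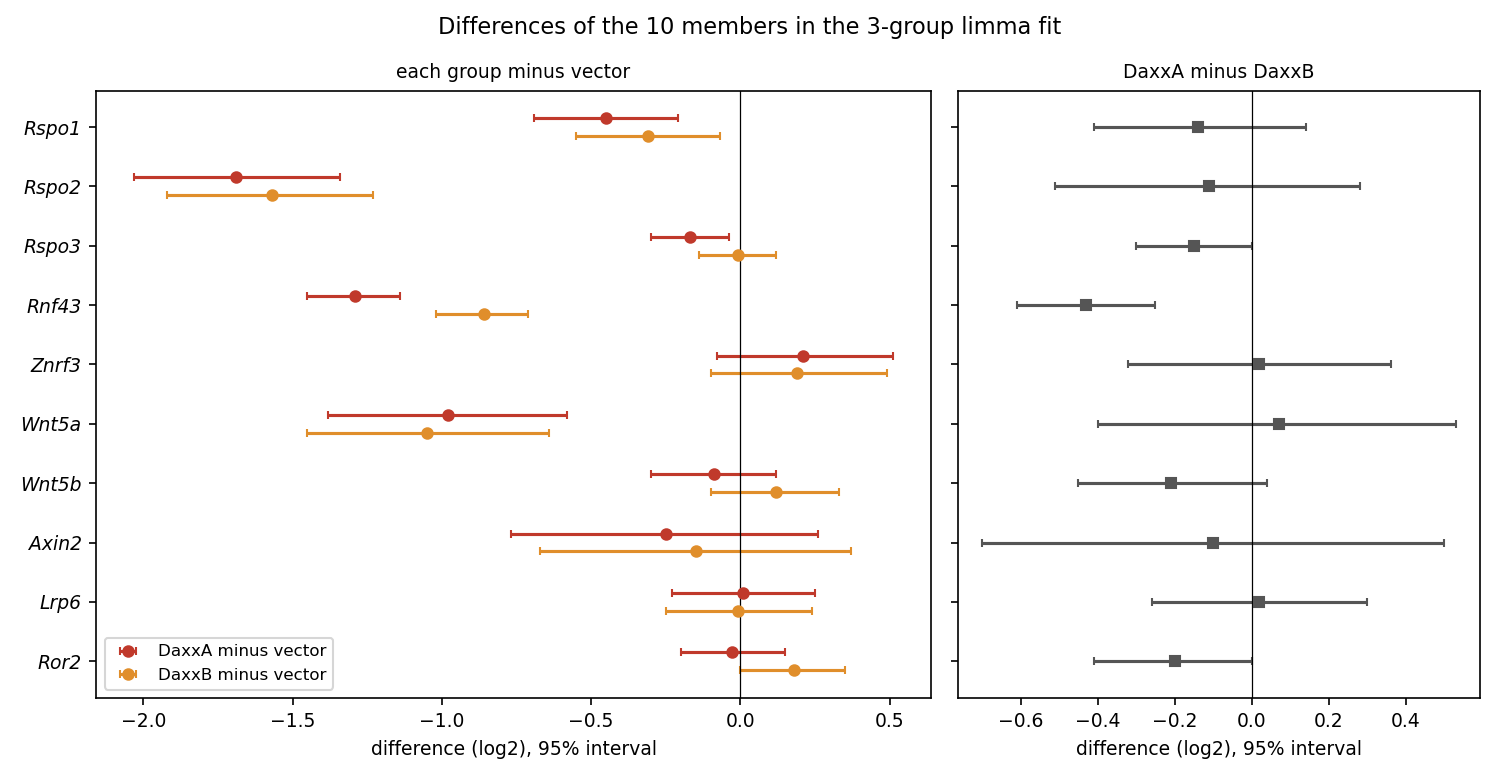
Differences on the log2 scale (horizontal axis) with 95% intervals for DaxxA minus vector and DaxxB minus vector (left) and DaxxA minus DaxxB (right), from limma with 1 shared estimate of spread. The intervals of Rspo2, Rnf43 and Wnt5a lie below 0 for both groups, and on the right that of Rnf43 runs from -0.61 to -0.25.

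Whether DaxxA and DaxxB differed was asked of the same fit. None of the 10 members was called (limma, 0 of 19938 genes called, 0.0%), while 3 members and 846 genes had an unadjusted p below 0.05. Rnf43 was 1.35-fold lower in DaxxA than in DaxxB (-0.43, SE 0.075, 95% interval -0.61 to -0.25, limma unadjusted p = 0.000604, adjusted p = 1.0). Its SD between replicates was 0.0129 in DaxxA and 0.0144 in DaxxB (n = 2 each). Without vector replicate 2, which enters this contrast only through the shared spread, the same difference had an adjusted p of 0.0237 and was the 1 member called, beside 2.15% of all genes (1.36% lower, 0.787% higher). Rspo3 was 0.15 and Ror2 0.20 log2 units lower in DaxxA (limma unadjusted p = 0.0475 and 0.0467), and Rspo2, near background in both, and Wnt5a differed by -0.11 (95% interval -0.51 to 0.28) and 0.07 (95% interval -0.40 to 0.53).

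**Figure D3:**
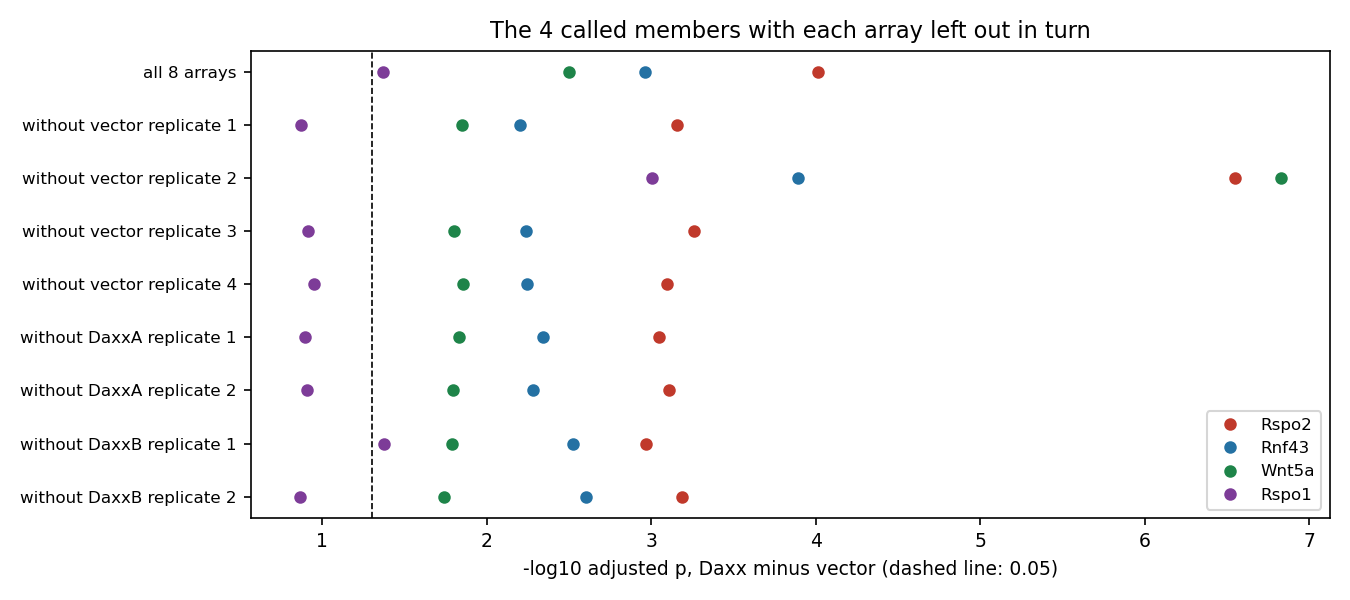
Minus log10 of the limma adjusted p (horizontal axis) for Daxx minus vector of the 4 called members with all 8 arrays and with each array left out. Rspo2, Rnf43 and Wnt5a stay right of the dashed line at 0.05 in all 8 fits, and Rspo1 in 2.

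RefSeq promoter sequences (GRCm38.p6) were at hand for 5 of the members: Rspo1, Wnt5b, Rnf43, Axin2 and Ror2. Those of the called members Rspo1 and Rnf43 are shown, with 250 bases before each annotated start on the gene's own strand, and with 1 of the 3 Wnt5b starts for contrast. Capitals mark matches to the beta-catenin partner motif of Tcf and Lef factors, spelled CTTTGAT or CTTTGTT, read on both strands.
Rspo1, chr4:124986180-124986429 (+ strand): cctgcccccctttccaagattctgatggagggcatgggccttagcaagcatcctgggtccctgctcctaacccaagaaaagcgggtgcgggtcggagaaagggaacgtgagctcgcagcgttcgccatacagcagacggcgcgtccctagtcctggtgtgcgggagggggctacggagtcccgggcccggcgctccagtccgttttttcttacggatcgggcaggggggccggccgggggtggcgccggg
Rnf43, first start, chr11:87662837-87663086 (+ strand): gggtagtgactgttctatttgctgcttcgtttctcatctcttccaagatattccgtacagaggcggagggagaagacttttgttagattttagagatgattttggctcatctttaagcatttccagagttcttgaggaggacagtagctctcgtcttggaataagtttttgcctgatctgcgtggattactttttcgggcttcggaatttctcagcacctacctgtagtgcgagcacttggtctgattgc
Rnf43, second start, chr11:87699647-87699896 (+ strand): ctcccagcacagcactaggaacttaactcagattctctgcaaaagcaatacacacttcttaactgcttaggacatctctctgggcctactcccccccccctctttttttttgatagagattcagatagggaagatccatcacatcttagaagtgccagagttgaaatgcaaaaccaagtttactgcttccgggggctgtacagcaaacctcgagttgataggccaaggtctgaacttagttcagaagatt
Wnt5b, most downstream start, chr6:119449387-119449636 (- strand): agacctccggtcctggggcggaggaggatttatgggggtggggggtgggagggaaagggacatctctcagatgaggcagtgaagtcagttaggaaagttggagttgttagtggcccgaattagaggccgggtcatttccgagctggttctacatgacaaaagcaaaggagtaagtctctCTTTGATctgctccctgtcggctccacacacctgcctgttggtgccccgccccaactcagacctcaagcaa
Of the 8 promoter windows of these 5 genes 1 held a match, the Wnt5b window shown, with its first base at -71 from the start. A match was present in 8.06% of all 32851 windows. The Rspo1 window had a GC content of 66.8% and the Rnf43 windows 44.4% and 45.2%. A match or its lack in these windows says nothing about binding.

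Other genes of the pathway were then described by role, from lists that leave the members out. Of 118 measured genes 14 were called lower and 3 higher in the Daxx arrays (median -0.047). Over all genes 4.52% were called, 2.73% lower and 1.8% higher (median -0.028). Without vector replicate 2 the counts were 26 lower and 8 higher (median -0.011). Of all genes 12.8% were then called, 7.57% lower and 5.26% higher (median 0.015). Each list count below, with or without that array, stands beside these shares.

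On the ligand side, 1 of 17 other Wnt genes was called: Wnt4, a ligand of kidney and gonad development, was 1.36-fold lower (-0.44, SE 0.084, limma adjusted p = 0.0216), with the same count without vector replicate 2. Among 7 genes of ligand secretion and handling 2 were lower and 0 higher, or 3 and 0 without that array. They were the glypicans Gpc4 and Gpc6, cell surface heparan sulfate proteoglycans that bind Wnts, at 3.09-fold (adjusted p = 2.11e-05) and 1.36-fold lower (adjusted p = 0.0446). The acyltransferase Porcn and the Wnt carrier Wls, which every secreted Wnt needs, changed by 0.06 and -0.05 and were not called. Of 14 secreted antagonists 1 was called, Sfrp1, which binds Wnts outside the cell: it averaged 9.11 ± 0.0866 in Daxx and 12.1 ± 0.116 in vector (SD, n = 4 each), and 2 were lower without vector replicate 2.

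On the receptor side, 0 of the 4 genes for R-spondin receptors and Rspo4 were called with 8 arrays (limma). Lgr4 averaged 7.76 in Daxx and 7.83 in vector, Lgr5 and Rspo4 were near background, and Lgr6 was 0.30 higher (adjusted p = 0.108), or 0.37 higher without vector replicate 2, where it was called (adjusted p = 0.00329). Of 10 Frizzled genes 1 was lower and 0 were higher: Fzd4, a receptor of vessel and retina development, was 1.74-fold lower (-0.80, SE 0.098, adjusted p = 0.00219). Without that array 5 Frizzled genes were lower, beside 7.57% of all genes. Besides Fzd4 they were Fzd1 at -0.45, Fzd2 at -0.30, Fzd7 at -0.30 and Fzd8 at -0.37. Of the other co-receptors 0 of 5 were called, and 2 were lower without vector replicate 2, Ror1 (-0.14) and Ryk (-0.19).

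Inside the cell, 2 of 15 genes of Dishevelled and the destruction complex were lower and 0 higher. They were Apc2, a relative of the scaffold Apc (1.52-fold, adjusted p = 0.0195), and the tankyrase Tnks, which marks axins for degradation (1.16-fold, adjusted p = 0.0463). Of 12 nuclear partners of beta-catenin 1 was lower, Tcf7l2, a DNA-binding partner (1.24-fold, adjusted p = 0.0196), and without vector replicate 2 there were 4 lower and 2 higher, with Lef1, another such partner, at 0.32. Of 17 target genes 4 were lower and 1 higher. Nkd2, a feedback inhibitor that binds Dishevelled, was 1.52-fold lower (adjusted p = 0.00312), Tbx3, a transcription factor, 1.37-fold lower (adjusted p = 0.018), and Ccn5, a matricellular protein, 1.5-fold lower (adjusted p = 0.0242). The single higher target was Ccnd1, cyclin D1 of the cell cycle (1.18-fold, adjusted p = 0.025, named after its value was seen). Nkd1 and Sp5, targets in many tissues, changed by -0.07 and -0.10 and were not called. The target list had 5 lower and 3 higher without vector replicate 2.

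The planar polarity list, which holds effectors used by Wnt5a, had 2 of 17 genes higher and 2 lower, with the same counts without vector replicate 2. Celsr1, a cadherin of planar polarity, was 1.45-fold higher (adjusted p = 0.000615), and Daam1, a formin that links Dishevelled to actin, was 1.32-fold higher (adjusted p = 0.00705). Kif26b, a kinesin that is degraded in response to Wnt5a through Ror receptors, was 1.85-fold lower (-0.89, SE 0.102, adjusted p = 0.00164). The paralogue Celsr2 was 1.34-fold lower (adjusted p = 0.0462, named after its value was seen).

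**Figure D4:**
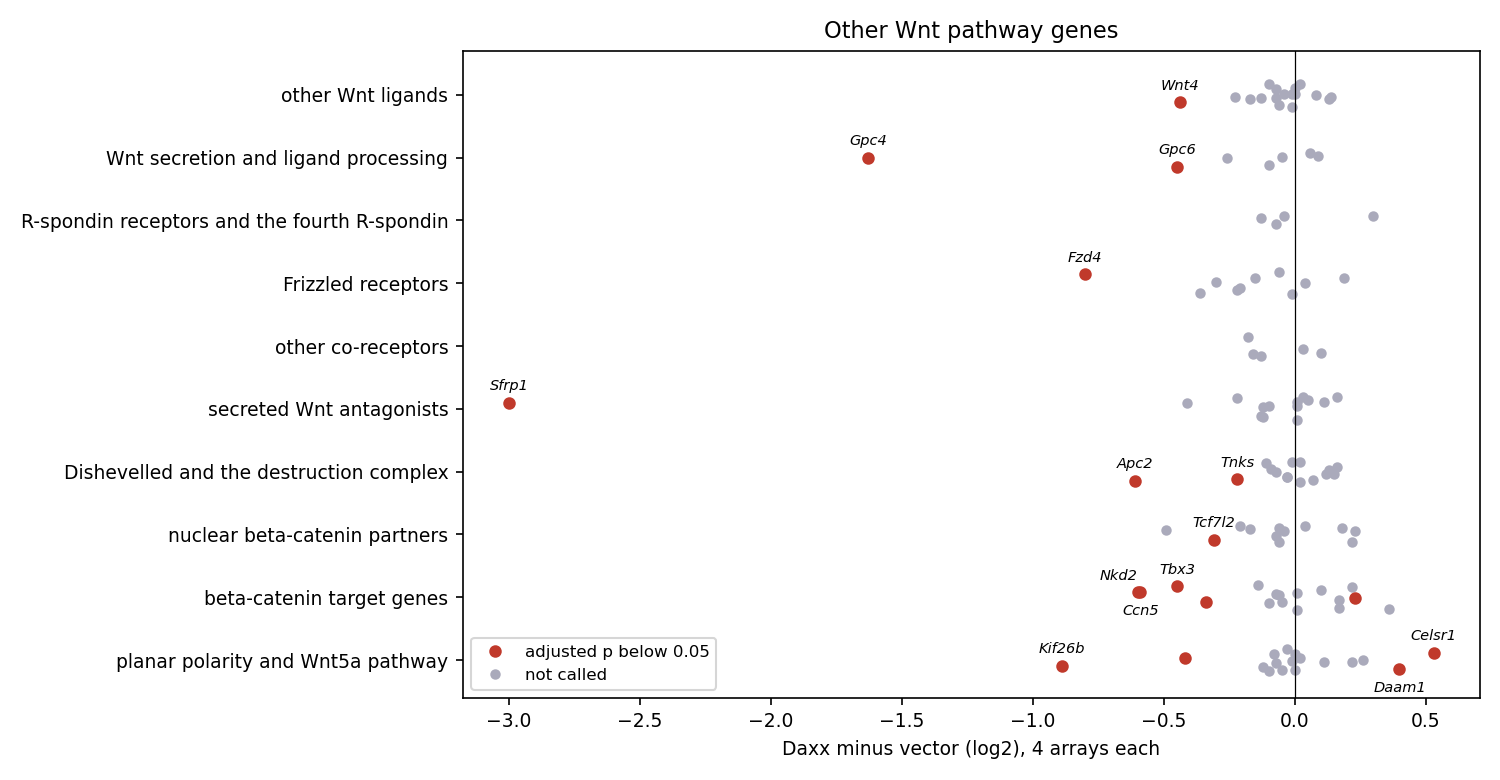
Daxx minus vector on the log2 scale (horizontal axis) for the measured genes of 10 Wnt pathway lists, members left out; each point is a gene, red where the adjusted p was below 0.05. Most points lie within a fraction of a log2 unit of 0, and Sfrp1 (-3.0), Gpc4 (-1.63), Kif26b (-0.89) and Fzd4 (-0.80) lie farthest to the left.

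Gene patterns most like that of Rspo2 were ranked by Pearson correlation over the 8 arrays, as a description, since the arrays fall into the Daxx and vector clusters and any gene that separates them correlates. The 5 genes were Wasf3, an actin regulator of the WAVE family (r = 0.9975), B4galnt1, a ganglioside synthase (r = 0.9965), the homeobox gene Hoxb13 (r = 0.9964), Stard10, a lipid transfer protein (r = 0.9963), and Ccdc80, a secreted matrix protein (r = 0.9938). Their changes ran from -1.07 (Ccdc80) to -0.41 (Stard10), all lower in the Daxx arrays. Among the members, Wnt5a had r = 0.9659, Rnf43 r = 0.9581 and Rspo1 r = 0.9019 with Rspo2, while Axin2 had 0.2892 and Znrf3 -0.4952.

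Some markers of cell types were called in Daxx minus vector as well, beside 2.73% of all genes called lower and 1.8% higher. Marker calls are given with all 8 arrays only. Of 13 fibroblast markers 3 were called lower, the mesenchymal transcription factor Prrx1 (-1.07), and the growth factor receptors Pdgfra (-0.82) and Pdgfrb (-0.70), and 1 was higher, the collagen Col1a2 (0.31). The mean over the list was 8.99 to 9.11 in the Daxx arrays and 9.24 to 9.35 in the vector arrays (9.24 to 9.25 without vector replicate 2). Of 7 smooth muscle and pericyte markers 2 were higher, Mcam and Acta2, Rgs5 was near background, and the mean was 7.38 to 7.51 in the Daxx arrays and 7.26 to 7.44 in the vector arrays, or 7.26 to 7.33 and thus wholly below the Daxx arrays without vector replicate 2. Of 6 neural markers 2 were higher, Map2 and Nes, Gfap and Olig2 were near background, and the mean was 7.19 to 7.25 in the Daxx arrays and 7.0 to 7.37 in the vector arrays, or 7.0 to 7.05 and again wholly below without that array. Of 6 markers of pluripotent cells 1 was lower, Sox2, while Pou5f1, Zfp42 and Dppa3 were near background and 3 of the 6 lay above it. The mean was 5.88 to 5.94 in the Daxx arrays and 5.99 to 6.30 in the vector arrays (5.99 to 6.05 without that array). Their part in the members' differences was not tested. Of the epithelial (8), endothelial (7) and blood cell (7) markers 0 were called by limma. Epcam, Cdh1, Pecam1, Cdh5 and Ptprc were near background. Above background were 3 of the 8 epithelial markers (Krt8, Krt18 and Cldn4), 1 of the 7 endothelial markers (Tie1) and 2 of the 7 blood cell markers.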

How the data were processed

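RNA samples of Daxx knockout mouse embryonic fibroblasts (4 labelled Daxx, 4 vector) were hybridised to Affymetrix arrays. The deposited values are log2 signals that the authors made with RMA in Affymetrix Expression Console, per the submitters' processing notes; versions are not given there. RMA in its usual form sets probe intensities to a common distribution and summarises several probes per probe set, which compresses differences near background. The deposited values do not share 1 distribution, since vector replicate 2 has an interquartile range of 2.79 against 3.31 to 3.39 in the other arrays. The number of arrays limits the precision.

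Of 35556 probe sets, 21789 had 1 gene symbol, 1621 several and 12146 none in the platform annotation. The probe set with the highest mean was kept per symbol, which set aside 1851 and left 19938 genes, of which 19856 matched RefSeq (GRCm38.p6) by gene number. The values were not normalized again. limma 3.58.1 (R 4.3.3) compared Daxx with vector over 2 conditions, and DaxxA, DaxxB and vector in a fit of 3 groups, with Benjamini-Hochberg adjustment over all genes and no filter on dim genes. The fit of Daxx against vector was tested on simulated data with normal noise, no outlying array and 200 changed genes. It recovered 61% of changes of 0.5 log2 units and 87% of changes of 1, and 2.63% of its calls were false. Smaller changes were not simulated, so a member that was not called may still differ.

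The members, gene lists and tests were chosen with earlier results of these data known. All 10 members are named, with up to 3 called genes of each pathway list by smallest adjusted p and the 5 genes most correlated with the called member of largest change. Genes named beyond this rule, such as those that changed without vector replicate 2, uncalled genes of known role and markers, were chosen after their values were seen. Alternatives were each array left out, the replicate number as a block, a filter on dim genes, mean of probe sets, all probe sets tested, quantile normalization again, median centring, array weights, a trended robust prior, an exact permutation test, the mean of both Daxx effects and, chosen after seeing the data, values under an array's background raised to it.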

Additional observations from a re-analysis of the deposited data

Results flagged for a closer look

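For 3 members, vector replicate 2 lay far from the other 3 vector arrays relative to the range of the 4, above the 95% critical value of Dixon's test. Znrf3 read 8.68 there and 9.07 in the nearest other vector array (gap over range 0.96). Wnt5a read 6.92 there and 7.44 in the nearest (0.848). Lrp6 read 9.6 there and 9.91 in the nearest (0.918). In all, 20 groups of 4 arrays were tested, 10 members in the Daxx and the vector arrays, and chance would mark about 1 in 20. All 3 marks fell on the same array, which also had the narrow interquartile range given above, and the members share that array.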

How the results depend on the processing

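Leaving out each array in turn gave 3 to 4 members called for Daxx minus vector (4 with all arrays), 2 to 4 for DaxxA minus vector (3), 1 to 5 for DaxxB minus vector (3) and 0 to 1 for DaxxA minus DaxxB (0). Over all genes the same fits called 446 to 2558 (902 with all arrays), 71 to 2246 (393), 82 to 4083 (536) and 0 to 428 (0), each highest without vector replicate 2. With array weights, where that array had a weight of 0.052, the members called were 4, 5, 5 and 1, and all genes called 3231, 2718, 4252 and 485. Quantile normalization again called 1402, 659 and 1037 genes in the first 3 comparisons, the filter on dim genes, which removed Axin2, called 600 for DaxxA and 931 for DaxxB, and the trended robust prior 901 for DaxxB. The cause was not tested. Rspo1 for Daxx minus vector lost its call with median centring (limma adjusted p = 0.068) and all probe sets tested (adjusted p = 0.0878). The mean of both Daxx effects lost it too (adjusted p = 0.0524), and 7 of 17 limma alternatives kept it. Rspo2 kept its call in 17, and Rnf43 and Wnt5a in 16. For DaxxA, Wnt5a lost its call with median centring and all probe sets tested (adjusted p = 0.0648 and 0.0813). It kept the call in 6 of 16 alternatives for DaxxA and 8 of 16 for DaxxB.

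The replicate numbers carry no stated pairing. Differences of replicate 1 minus replicate 2 correlated over genes at 0.096 (DaxxA and DaxxB), 0.133 (DaxxA and vector) and 0.037 (DaxxB and vector). Vector replicates 3 and 4 did not enter these values, and vector replicate 2 did. With the replicate block, 1 member was called for Daxx minus vector and 0 for DaxxA and for DaxxB minus vector, with 162, 0 and 0 genes called by limma. Replicate numbers 3 and 4 occur only in vector, so the block takes those arrays out of the comparison. Its changes rest on replicates 1 and 2 of each group, vector replicate 2 among them. The lost calls therefore cannot be read as an effect of pairing. For Daxx minus vector the values under the block were -1.554 for Rspo2 (adjusted p = 0.0112), -1.123 for Rnf43 (adjusted p = 0.055), -0.884 for Wnt5a (adjusted p = 0.0571) and -0.324 for Rspo1 (adjusted p = 0.217).

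Members that were not called changed sign at small values. For Daxx minus vector, Wnt5b was -0.036 with the replicate block and -0.034 to 0.073 over the left-out arrays, and Lrp6 was -0.009 after quantile normalization, -0.072 with array weights and -0.079 to 0.035 over the left-out arrays. For DaxxA minus vector, Lrp6 was -0.013, -0.063 and -0.069 to 0.044 under those 3, and Ror2 was 0.021 with median centring and -0.084 to 0.029 over the left-out arrays. For DaxxB minus vector, Rspo3 was 0.02 after quantile normalization and -0.04 to 0.014 over the left-out arrays, Axin2 -0.287 to 0.019, and Lrp6 0.079 with the replicate block and -0.088 to 0.026. For DaxxA minus DaxxB, Rspo2 was -0.228 to 0.002 over the left-out arrays, Znrf3 -0.013 after quantile normalization and -0.048 to 0.084, and Lrp6 -0.007 after quantile normalization.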

Other observations

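The measured genes nearest to each member on its chromosome, 5 on either side, were set beside it by RefSeq order. Around Rspo2, 2 of 10 neighbours were called lower in the Daxx arrays, Oxr1, an oxidation resistance gene, and Angpt1, a ligand of the Tek receptor, and the 10 changes ran from -0.57 to 0.23. Over all genes 2.73% were called lower. Without vector replicate 2, 3 of these neighbours were lower and 2 higher, beside 7.57% and 5.26% of all genes. Around Rnf43, Wnt5a and Rspo1, 0 of 10 neighbours each were called by limma, with changes from -0.33 to 0.09, -0.28 to 0.23 and -0.14 to 0.32. On the 7 arrays without vector replicate 2, 1 neighbour of Rspo1 was called higher and 0 of Rnf43 and Wnt5a were called.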
